A study of Mus musculus with 8 samples.

Results

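The erythroid and haemoglobin genes were followed across 8 mouse mammary tumour arrays. The set names 7 genes, Hba-a1, Hba-a2, Hbb-b1, Hbb-b2, Alas2, Slc4a1 and Ahsp, which had been picked because their median was low in FGFR1 KO tumours. Probes were matched to the genes by RefSeq accession among the array's non-control spots. This gave 1 probe each for 6 of the 7 genes, out of 21368 genes named on the array, and Ahsp was not analysed here. All 6 passed the filter of red signal well above background on at least 4 arrays, which 39883 of 55681 probes passed. Because the genotype difference chose these genes, it is described below with no test.

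The samples were 4 breast tumours labelled FGFR1 KO, from K19-tva mice with both copies of Fgfr1 floxed, and 4 labelled WT, from K19-tva mice used as controls. All carried the K19-tva transgene, named for the Krt19 promoter and an avian retrovirus receptor, and the FVB strain background. The floxed allele came from ICR mice and was backcrossed to FVB. The labels give neither the Cre that acts on the floxed gene, nor the age of the mice, nor whether each tumour came from its own animal. Spread between arrays may therefore be partly technical. Tumour RNA, read in red, was hybridised with a common human reference RNA, read in green, and a level below is the log2 of red over green. A difference is FGFR1 KO minus WT on that scale.

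Haemoglobin carries oxygen in red blood cells as a tetramer of α and β globin chains with bound haem. Circulating red cells have no nucleus, but the youngest of them still hold globin messenger RNA, so globin transcripts in a solid tissue usually travel with the blood in it. Hba-a1 and Hba-a2 encode adult α globin, and Hbb-b1 and Hbb-b2 encode adult β globin. Alas2 encodes the erythroid form of the enzyme that begins haem synthesis, and Slc4a1 encodes band 3, the anion exchanger of the red cell membrane. Ahsp encodes a chaperone of free α globin.

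RefSeq promoter sequences on build GRCm38.p6 were held for 3 of these genes, Hba-a1, Hba-a2 and Alas2. They are shown because the genes varied together across the arrays, beside that of the β globin gene Hbb-bt, which varied with them. Each run is the 250 bases before the annotated start, 5′ to 3′ on the gene's strand. Capitals mark 3 motif sets searched on both strands: GATA preceded by A or T and followed by A or G (called a GATA word), the word CACCC, and the word CCAAT. They are short words known from binding of GATA, Krüppel-like and CCAAT-box factors.
Hba-a1, chr11:32283422-32283671, plus strand: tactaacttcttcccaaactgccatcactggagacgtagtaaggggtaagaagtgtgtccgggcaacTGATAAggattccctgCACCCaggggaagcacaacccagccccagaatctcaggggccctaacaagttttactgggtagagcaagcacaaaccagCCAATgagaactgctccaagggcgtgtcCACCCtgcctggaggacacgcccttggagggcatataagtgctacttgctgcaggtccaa
Hba-a2, chr11:32296242-32296491, plus strand: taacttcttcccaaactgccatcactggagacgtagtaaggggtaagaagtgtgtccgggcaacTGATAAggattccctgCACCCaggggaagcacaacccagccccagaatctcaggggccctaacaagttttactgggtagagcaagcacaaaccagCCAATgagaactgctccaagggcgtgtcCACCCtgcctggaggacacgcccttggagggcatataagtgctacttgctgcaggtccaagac
Alas2, chrX:150547167-150547416, plus strand: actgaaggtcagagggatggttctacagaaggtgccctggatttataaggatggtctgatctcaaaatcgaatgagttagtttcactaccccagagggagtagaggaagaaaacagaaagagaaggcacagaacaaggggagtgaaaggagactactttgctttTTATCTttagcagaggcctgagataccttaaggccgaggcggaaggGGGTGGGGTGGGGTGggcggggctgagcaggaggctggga
Hbb-bt, chr7:103813924-103814173, minus strand: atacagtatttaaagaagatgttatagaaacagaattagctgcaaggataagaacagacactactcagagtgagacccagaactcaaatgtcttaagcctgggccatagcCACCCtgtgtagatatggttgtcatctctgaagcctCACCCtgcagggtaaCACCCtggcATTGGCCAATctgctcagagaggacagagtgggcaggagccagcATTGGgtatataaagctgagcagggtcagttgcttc
The Hba-a1 and Hba-a2 windows aligned with 247 of 250 bases identical. Each held 1 GATA word, 2 CACCC words and 1 CCAAT word. In Alas2, 1 GATA word and 3 CACCC words were found, each on the opposite strand. The Hbb-bt window held 3 CACCC and 3 CCAAT words. Of 32851 promoter windows of this length, 26.5% held a GATA word, 52.0% a CACCC word and 33.8% a CCAAT word, so these matches are a description and are common.

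Some facts of the series touch these genes. The share of spots whose red signal cleared background was 68.9% to 83.9% for FGFR1 KO and 43.9% to 69.2% for WT. All 8 arrays lay on 1 slide, FGFR1 KO in row 1 and WT in row 2, so an effect of the row and one of genotype cannot be told apart. Negative-control spots in rows 97 to 336 and columns 83 to 164 were bright on the WT arrays. There, 17.7% to 46.9% of 96 such spots exceeded 50 red units over local background on the WT arrays, against 0 on each FGFR1 KO array. The spots of Hbb-b2 (row 269, column 153) and Slc4a1 (row 116, column 133) lay in this part, and the other 4 lay outside it, at row 216, column 20 for Hba-a1, row 347, column 30 for Hba-a2, row 41, column 151 for Hbb-b1 and row 283, column 39 for Alas2. Across probes, WT 2 correlated least with the rest, at 0.379 on average, where each other array averaged 0.598 to 0.713. The targeted gene Fgfr1 had 3 tested probes, with differences of 0.00, -0.10 and -0.49 and SEs of 0.12, 0.41 and 0.66 (limma, adjusted p = 1, 0.951 and 0.841). No source used here places these probes relative to the floxed part, so they do not check the labels. The probes at -0.10 and -0.49 read 1.64 and 1.76 on FGFR1 KO 3, their highest array. On FGFR1 KO 4, their lowest, they read -0.42 and -1.99, and on the WT arrays 0.22 to 0.91. The tissue was checked with 8 mammary epithelial genes, whose median level was 1.98 to 2.67 on the FGFR1 KO arrays, 1.60, 2.27 and 2.77 on WT 1, WT 3 and WT 4, and -0.97 on WT 2.

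Globin messenger RNA was abundant but very uneven from tumour to tumour, and the unevenness did not follow genotype alone. WT 2 was the highest array for all 6 genes. FGFR1 KO 3 came next and WT 1 after it for 5 of the 6, the exception being Slc4a1. FGFR1 KO 1, 2 and 4 lay below every WT array for all 6 genes. In bulk tissue, fewer cells of a type and less RNA per cell cannot be told apart. The per-array median over the 6 genes was 3.01, 3.18, 7.39 and 3.39 on FGFR1 KO 1 to 4 and 6.17, 8.36, 5.36 and 5.51 on WT 1 to 4. Alas2 and Slc4a1 read lowest of the 6 on every array. The median was therefore set by globin probes, on most arrays by Hba-a1 and Hba-a2, and it is mainly an α globin reading. For FGFR1 KO it averaged 4.24 ± 2.11 (SD, n = 4), for WT it averaged 6.35 ± 1.39 (SD, n = 4), and the difference was -2.11. Without FGFR1 KO 3 that difference was -3.16, and without WT 2 it was -1.44. Without WT 1 and WT 2 it was -1.19, and with array weights it was -1.07. This ordering and these differences are what the genes were chosen on, and over all probes 4.19% had FGFR1 KO 1, 2 and 4 below every WT array.

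**Figure D1:**
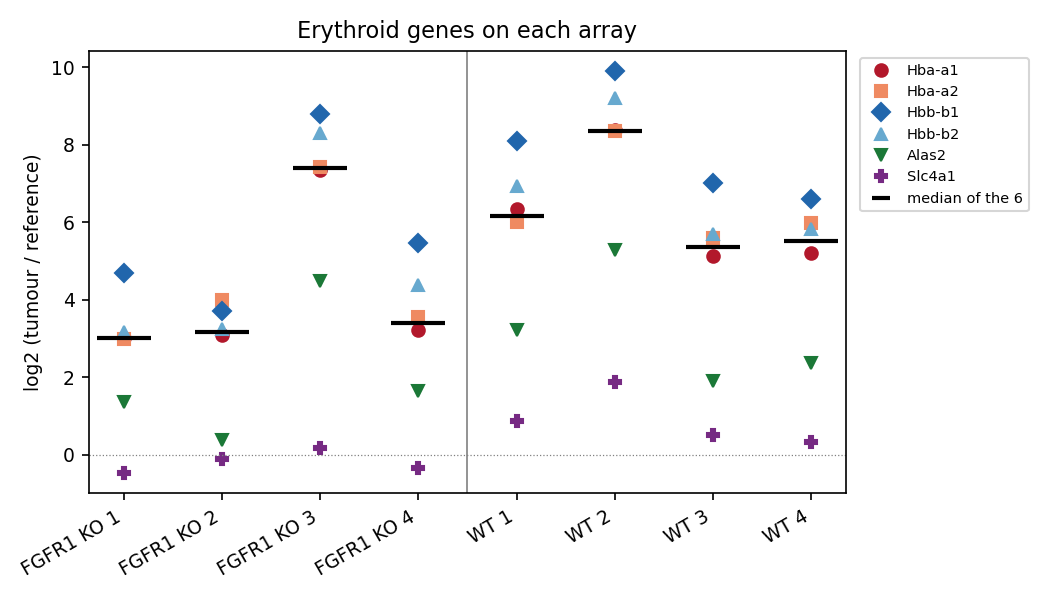
Level of each erythroid gene, as the log2 ratio of tumour to reference, on the 8 arrays; symbols are genes and black bars the median of the 6. FGFR1 KO 3, with a median of 7.39, stands among the WT arrays, which run from 5.36 to 8.36, while the other FGFR1 KO medians are 3.01 to 3.39.

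Of the α globin genes, Hba-a1 read 3.01, 3.09, 7.36 and 3.22 on FGFR1 KO 1 to 4 and 6.33, 8.37, 5.12 and 5.20 on WT 1 to 4. The groups overlapped through FGFR1 KO 3 alone, which exceeded WT 1, WT 3 and WT 4. The difference was -2.09 ± 1.08 (SE), with means of 4.17 ± 2.13 (SD, n = 4) for FGFR1 KO and of 6.26 ± 1.51 (SD, n = 4) for WT, and it was -3.15 without FGFR1 KO 3 and -1.38 without WT 2. On FGFR1 KO 3 the ratio was 19.0-fold the mean of the other FGFR1 KO arrays. Hba-a2 read 3.00, 4.00, 7.42 and 3.56 on FGFR1 KO 1 to 4 and 6.002, 8.34, 5.59 and 5.98 on WT 1 to 4. Its groups overlapped in the same way, and the difference was -1.99 ± 0.98 (SE). The 2 genes encode nearly the same messenger, and the probe sequences were not used here, so each probe may report both.

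Of the β globin genes, Hbb-b1 gave 4.69, 3.70, 8.78 and 5.47 on FGFR1 KO 1 to 4 and 8.10, 9.91, 7.02 and 6.59 on WT 1 to 4. It had the widest span of the 6 genes, 6.21 log2 units or 73.8-fold between FGFR1 KO 2 and WT 2. The difference was -2.25 ± 1.099 (SE), and it was -1.15 without WT 1 and WT 2. For Hbb-b2 the levels were 3.17, 3.26, 8.30 and 4.38 on FGFR1 KO 1 to 4 and 6.93, 9.21, 5.69 and 5.82 on WT 1 to 4. Again FGFR1 KO 3 was second only to WT 2. Its difference was -2.14 ± 1.20 (SE), and it was -3.31 without FGFR1 KO 3 and -1.37 without WT 2. These adult β globin genes are close copies as well, and their signals may be shared.

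The Alas2 difference depended strongly on single arrays. Its levels were 1.37, 0.38, 4.49 and 1.64 on FGFR1 KO 1 to 4 and 3.21, 5.29, 1.90 and 2.37 on WT 1 to 4. The order of the 3 highest arrays was that of the globins. Its red signal was not well above background on FGFR1 KO 2 and WT 3. The difference was -1.22 ± 0.96 (SE), and it was -2.06 without FGFR1 KO 3, -0.69 without FGFR1 KO 2, -0.52 without WT 2 and -0.16 without both WT 1 and WT 2.

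Slc4a1 was raised much less on FGFR1 KO 3. The anion exchanger gene read -0.46, -0.11, 0.18 and -0.33 on FGFR1 KO 1 to 4 and 0.87, 1.88, 0.52 and 0.34 on WT 1 to 4. Every FGFR1 KO array was below every WT array, which held for 1 of the 6 genes and for 2.71% of all probes tested. FGFR1 KO 3 was 0.48 above the mean of the other FGFR1 KO arrays, against 3.36 for Alas2 and 3.90 to 4.70 for the 4 globin genes. The difference was -1.08 ± 0.33 (SE), with means of -0.18 ± 0.28 (SD, n = 4) for FGFR1 KO and of 0.90 ± 0.69 (SD, n = 4) for WT, and it was -0.61 without WT 1 and WT 2. Its probe lay in the part of the array where negative controls were bright on the WT arrays, its raw red intensity ran from 81 to 477 units, and it was not well above background on WT 3. The part of that brightness in its values was not tested.

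The spread among tumours of 1 genotype is given beside that of all genes tested as a description, since genes chosen for a low value on these arrays can also be ones that spread widely. The pooled SD within groups was 1.85 for Hba-a1, 1.67 for Hba-a2, 1.88 for Hbb-b1, 2.06 for Hbb-b2 and 1.64 for Alas2. The median over the 16761 genes tested was 0.33, and these 5 genes lay at percentiles 99.0 to 99.6 of it. For Slc4a1 the SD was 0.52, at percentile 77.9. Within the FGFR1 KO group the globin genes ranged over 4.35 to 5.13 log2 units, and within WT over 2.75 to 3.52.

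Chains were compared within arrays, where a shared rise cancels. Hbb-b2 minus Hba-a1 ran from 0.15 to 1.16 over the 8 arrays, a range of 1.00 where each gene alone ranged over 6.04 and 5.36. Hba-a2 minus Hba-a1 ranged over 1.24 and Hbb-b1 minus Hba-a1 over 1.64. The β and α probes thus kept close to a fixed offset while their levels moved far more. Alas2 minus Hba-a1 ranged over 1.64. Slc4a1 minus Hba-a1 ranged over 3.98. Slc4a1 alone ranged over 2.34, less than Hba-a1, so this difference would range widely even if both rose and fell together. Its readings also lay near background.

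The red channel carried these swings. Raw red intensity of the Hba-a1 spot ran from 1602.5 to 62780 units across arrays, while its green intensity ran from 493 to 904.5. Red and green differed as widely for Hbb-b2, at 290 to 23654 in red and 71 to 106.5 in green. Local red background at the 6 spots was 47 to 56 units, and no spot was saturated or marked as an outlier. Green was well above background on all 8 arrays for Hba-a1, Hba-a2 and Slc4a1, on 5 for Hbb-b1, on 3 for Hbb-b2 and on 0 for Alas2. Where green was near background, the size of a ratio depends on the offset of 50 added in background correction, so the level of a gene is read against its own levels on other arrays. Differences between probes are read for how they vary over the arrays, not for their size.

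**Figure D2:**
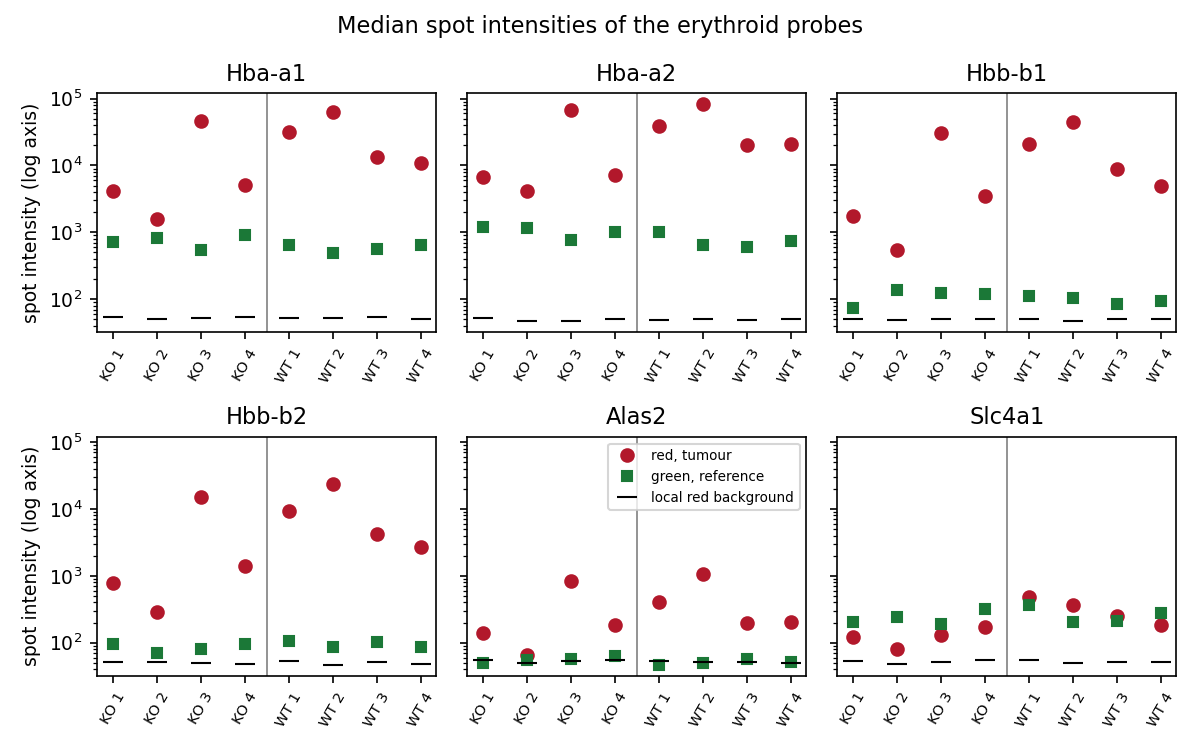
Raw median spot intensity of the 6 probes on each array, on a log axis, with red circles for tumour, green squares for reference and dashes for local red background; KO stands for FGFR1 KO. Red of Hba-a1 spans 1602.5 to 62780 units while green stays between 493 and 904.5, and Alas2 and Slc4a1 lie nearest to background.

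Genes outside the set gave a wider view of red cells, haem and other blood cells. The 12 lists held 150 genes, of which 129 were tested. By limma's adjusted p over all probes, 0 of these 129 were called in either direction, where 4 of 39795 probes (0.0101%) were. At an unadjusted p under 0.05, 14 were lower and 1 was higher in FGFR1 KO, or 11.6% in all, against 7.87% of the 16761 genes tested. Among probes the share was 8.48%, with 4.85% of probes lower. The counts include Gypc and Ngb, which were mostly at background in 1 of the groups. The median difference over all genes tested was 0.00, and 50.3% of them were below 0. Counts below 0 in the lists are read beside that share. Genes of a list can move together through single arrays, so they are not separate results.

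Among the other globins, 3 of 7 tested genes were below 0, with a median difference of 0.01. Hbb-bt, an adult β globin gene, read 2.77, 2.69, 7.70 and 3.68 on FGFR1 KO 1 to 4 and 5.84, 8.32, 4.75 and 4.05 on WT 1 to 4. It thus had the array order of the adult globins at the top, with a difference of -1.53 ± 1.25 (SE; limma, adjusted p = 0.742). Its probe sequence was not used here, and its signal may be shared with Hbb-b1 and Hbb-b2, so it may not be a separate measurement. The embryonic β-like gene Hbb-y stayed between -0.55 and 0.36 on all 8 arrays and differed by 0.01 ± 0.23 (SE). The θ-like gene Hbq1b differed by 0.05 ± 0.23 (SE). Mb, which encodes the oxygen store of muscle, read 8.65 on WT 2 and 0.62 to 2.59 elsewhere. Cygb, the globin of fibroblasts, differed by -0.87 ± 0.38 (SE; limma, adjusted p = 0.591). Ngb, the globin of neurons, was above background on 4 FGFR1 KO arrays and 1 WT array, so it passed the filter mainly through FGFR1 KO. It read 0.22 to 0.71 in FGFR1 KO and -0.31 to 0.15 in WT. The Mb, Hbb-y and Ngb probes lay in the bright part.

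In the haem pathway, 11 of 14 tested genes were below 0, with a median difference of -0.09. The list median on FGFR1 KO 3 was 0.03 below the mean of the other FGFR1 KO arrays. On WT 2 it was 0.64, the highest of the 8 arrays and 0.53 above the mean of the other WT arrays. Alas1, the form of the first enzyme used by most tissues, read -0.11 on FGFR1 KO 3 and -0.10 to 0.11 on FGFR1 KO 1, 2 and 4, so FGFR1 KO 3 was not its highest FGFR1 KO array as it was for Alas2. A second Alas1 probe, in the bright part, differed by -1.23 ± 0.57 against -0.21 ± 0.14 (SE) for the first, so the probes disagreed in size. Fech, which inserts iron into the ring at the last step, read 1.98 on WT 2, 0.11 on FGFR1 KO 3 and -0.70 to 0.01 on the rest, from a probe in the bright part. Differences were -0.48 ± 0.28 for Alad, -0.01 ± 0.35 for Uros, -0.28 ± 0.32 for Urod, -0.08 ± 0.30 for Cpox and 0.00 ± 0.18 for Ppox (SE), which encode enzymes of the steps between. The second Alad probe differed by 0.16 ± 0.21 (SE). Tspo, which encodes an outer mitochondrial membrane protein that binds porphyrins and cholesterol, read -0.79 to -0.50 in FGFR1 KO and -0.03 to 0.63 in WT. Its difference was -0.98 ± 0.19 (SE; limma, adjusted p = 0.181).

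Membrane genes of red cells were mostly dim and regulators mostly measured. Of 18 membrane genes 8 were tested, and the defining genes Epb42, Rhag and Kel had red signal above background on 0, 1 and 0 of 8 arrays. All 8 tested were below 0, with a median of -0.39. Ank1 and Sptb, which encode the ankyrin and β spectrin of the membrane skeleton, read 3.11 and 3.16 on WT 2. Ank1 read -0.19 to 0.27 on the other 7 arrays, and Sptb read 1.13 on FGFR1 KO 3 and 0.18 to 0.65 on the rest. Gypc, which encodes glycophorin C, was above background on 1 FGFR1 KO and 3 WT arrays, from a probe in the bright part, and so passed the filter mainly through WT. It read -3.37 to -2.04 in FGFR1 KO and -2.44 to 0.22 in WT, and the groups overlapped. Of 10 regulators 9 were tested and 8 were below 0. The median difference was -0.10, and Gata1 was above background on 3 arrays. Klf1, the Krüppel-like factor of adult β globin, read 0.62, 0.62, 1.104 and -0.55 in FGFR1 KO and 1.38, 0.92, 1.48 and 2.01 in WT, again in the bright part. Its red signal was above background on 3 FGFR1 KO and 2 WT arrays. Klf1 differed by -0.998 ± 0.36 and Lyl1, a blood-forming lineage factor with a bright-part probe too, by -1.22 ± 0.41 (SE; limma, adjusted p = 0.519 and 0.475). Differences were -0.07 ± 0.20 for the erythropoietin receptor gene Epor, -0.10 ± 0.22 for Tal1, -0.16 ± 0.26 for Gfi1b and -0.04 ± 0.27 for Nfe2 (SE). Of the 13 tested genes of the red cell cytosol, 10 were below 0, with a median of -0.11. Bpgm, which makes the phosphate compound that lowers oxygen affinity, read 1.003 on FGFR1 KO 3 and -0.07 to 0.42 on FGFR1 KO 1, 2 and 4, and its WT levels were 0.28 to 2.38. Its difference was the lowest of the list. Above 0 were Car1 at 0.30 ± 0.15, Mkrn1 at 0.26 ± 0.18 and Trim10 at 0.23 ± 0.25 (SE). Second probes gave -0.15 ± 0.14 for Car1 and 0.05 ± 0.29 (SE) for Mkrn1.

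**Figure D3:**
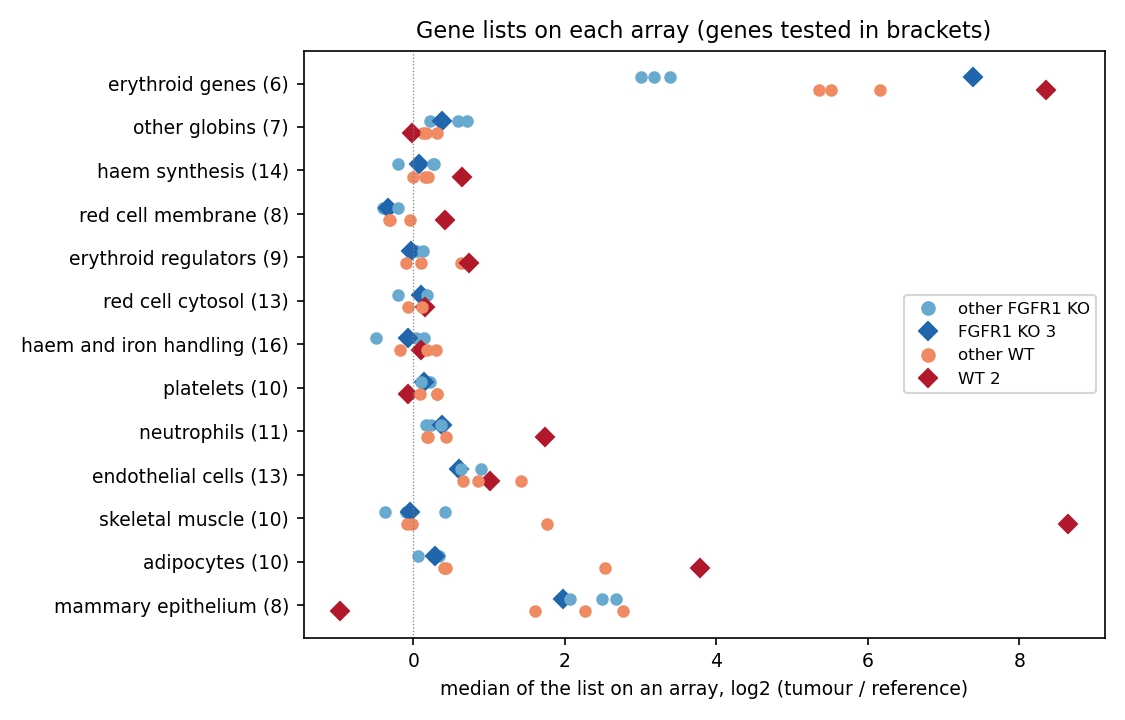
Median level of each gene list on each array, as the log2 ratio of tumour to reference, with FGFR1 KO above and WT below each line and the arrays FGFR1 KO 3 and WT 2 as diamonds. FGFR1 KO 3 is 4.198 above the mean of the other FGFR1 KO arrays in the erythroid genes and between -0.43 and 0.12 from it in the 12 other lists.

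Of the genes that handle haem and iron, 11 of 16 tested were below 0, with a median difference of -0.29. In 3 of the 16, Hp, Cd163 and Ncoa4, every FGFR1 KO array was below every WT array, as in 2.50% of all genes tested, and in the other 13 the groups overlapped. Hp, which encodes haptoglobin, the plasma protein that binds free haemoglobin, read 2.90, 1.88, 3.02 and 2.01 in FGFR1 KO and 4.95, 3.79, 4.79 and 4.47 in WT. Its lowest WT array was WT 2, the array where the globin genes were highest. The difference was -2.05 ± 0.34 (SE; limma, adjusted p = 0.142). Cd163, the macrophage receptor for haptoglobin and haemoglobin complexes, read 0.55, 0.02, 0.49 and 0.24 in FGFR1 KO and 1.56, 0.95, 0.96 and 0.72 in WT. It differed by -0.72 ± 0.21 and Ncoa4, the receptor for ferritin breakdown, by -0.76 ± 0.18 (SE; limma, adjusted p = 0.439 and 0.341), and the Ncoa4 probe lay in the bright part. Among the rest, differences were -0.49 ± 0.43 for the haem oxygenase gene Hmox1, -0.61 ± 0.30 for the iron exporter gene Slc40a1 and 0.91 ± 0.47 (SE) for the transferrin receptor gene Tfrc. A second probe differed by -0.88 ± 0.53 for Hmox1 and by 0.34 ± 0.45 (SE) for Tfrc.

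Other cells of the blood and vessels were looked at beside the globins. Of 10 platelet genes tested 6 were below 0, with a median difference of -0.02, and Ppbp and Gp9 were above background on 0 arrays. Pf4, a platelet chemokine gene measured by a bright-part probe, read -3.43, -2.63, -2.49 and -3.20 in FGFR1 KO and -0.35, -0.70, -0.88 and -1.88 in WT, with a difference of -1.98 ± 0.35 (SE; limma, adjusted p = 0.162). Itga2b, the platelet integrin gene, differed by -0.85 ± 0.41 (SE). These 2 had the lowest differences of the list. Above 0 were Gp6 at 0.27 ± 0.16, Gp5 at 0.11 ± 0.15, Tubb1 at 0.10 ± 0.20 and Gp1bb at 0.07 ± 0.16 (SE). Gp5 was above background on 4 FGFR1 KO and 0 WT arrays, so it passed the filter only through FGFR1 KO. Of 11 neutrophil genes 8 were below 0, with a median difference of -0.16, with a list median of 1.73 on WT 2 and 0.17 to 0.43 on the other arrays. S100a9, an abundant neutrophil gene, read 6.93 on WT 2, 3.20 and 3.21 on WT 1 and WT 3, 3.07 on FGFR1 KO 3 and 1.00 to 2.19 on the other 4 arrays. Ltf of the same list went the other way, at 1.73 on WT 2 and 4.02 to 9.21 elsewhere. S100a8 was highest on FGFR1 KO 4, at 3.76 against 3.46 on WT 2, and Csf3r stayed between 0.02 and 0.24. Camp read 1.06 on FGFR1 KO 3 and 0.07 to 0.47 on FGFR1 KO 1, 2 and 4, from a bright-part probe. A second Camp probe read 0.32 on FGFR1 KO 3 and 0.13 to 0.35 on those arrays. Ngp, dim on most WT arrays, read 0.63 against -0.34 to 0.16. Neutrophil genes other than S100a9, Camp and Ngp were each highest on another FGFR1 KO array. Of 13 endothelial genes 12 were below 0, with a median difference of -0.40, with the list median at 0.60 to 0.89 in FGFR1 KO and 0.66 to 1.42 in WT. Pecam1 differed by -0.64 ± 0.16 (SE; limma, adjusted p = 0.341). On FGFR1 KO 3 the platelet median was 0.01 and the endothelial median 0.11 below the mean of the other FGFR1 KO arrays, and the neutrophil median was 0.12 above it. Muscle and fat were high on WT 2, with list medians of 8.65 and 3.79, and on WT 1, with 1.77 and 2.54. Of 10 fat genes 10 were below 0, with a median difference of -1.66, and of 10 muscle genes 9 were, with a median of -2.61. On FGFR1 KO 3 the list medians were -0.05 for muscle and 0.28 for fat, within the range of the other FGFR1 KO arrays. Of the 10 fat genes, Cfd, Fabp4, Adipoq and Plin1 were nonetheless highest of the FGFR1 KO arrays there. Cidec, Lep, Lpl, Plin4, Pparg and Retn were each highest on another FGFR1 KO array. Cfd, the adipokine adipsin, read 4.32 against 0.68 to 2.18 on FGFR1 KO 1, 2 and 4. Fabp4, the fatty acid carrier of fat cells, read 3.55 against 1.07 to 2.75, from a bright-part probe. Adipoq, which encodes adiponectin, read 0.98 against -0.05 to 0.34, and Plin1, the lipid droplet coat gene, 0.57 against 0.25 to 0.35. The Plin1 red signal was above background on 3 FGFR1 KO and 2 WT arrays. Over the 8 arrays Pearson's r with the erythroid median was 0.77 for Fabp4, 0.75 for Cfd and 0.74 for Adipoq, and 0.47, 0.59 and 0.47 without WT 2 and FGFR1 KO 1. For the other fat genes r was 0.45 to 0.72, and -0.05 to 0.53 without those arrays. The part of any of these tissues in the globin levels was not tested.

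**Figure D4:**
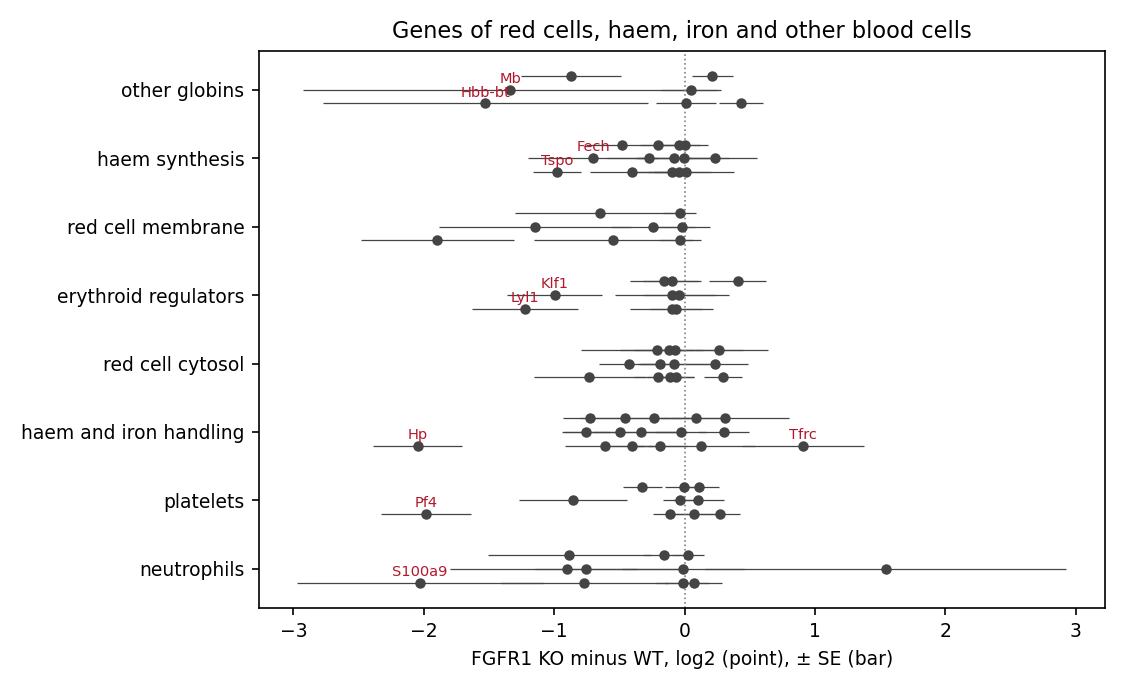
Difference between FGFR1 KO and WT on the log2 scale for each tested gene of 8 lists, as points with bars of ± 1 SE, with some genes named. Most genes lie near 0, with Hp at -2.05, S100a9 at -2.03 and Pf4 at -1.98 among the lowest, and 0 of them passed limma's adjusted threshold.

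The genes most like the erythroid set were ranked by Pearson's r with its median over the 8 arrays, among 16479 genes with a value on every array. Across these genes r had a median of 0.03 and a 95th percentile of 0.69, the arrays shared 1 slide and 1 normalization, and r is given as a description. The nearest were Cpd (0.97), Hbb-bt (0.96), Parm1 (0.96), Akap7 (0.95), Zfp74 (0.94), Phka2 (0.93), Fam217b (0.93), Adora1 (0.93), Mfsd4a (0.92) and Usp16 (0.91). With WT 2 and FGFR1 KO 1 left out, the arrays farthest from the middle, r was 0.98 for Cpd, 0.93 for Hbb-bt and 0.83 to 0.95 for the other 8. Hbb-bt, whose signal may be shared with the β globin genes of the set, ranged over 5.63 log2 units. Adora1 ranged over 2.53, Cpd over 1.88 and the other 7 over 0.55 to 1.13. Cpd, which encodes the membrane enzyme carboxypeptidase D, read -0.99, -0.78, 0.89 and -0.83 in FGFR1 KO and 0.23, 0.85, 0.31 and 0.26 in WT, from a probe in the bright part. It and Parm1, at 1.54 on FGFR1 KO 3 and 0.69 to 0.73 on the other FGFR1 KO arrays, shared the split within FGFR1 KO at a much smaller scale. Within the set itself, r with the median was 0.95 to 1.00 for the globins and Alas2, and 0.84 for Slc4a1. The values of that median came from Hba-a1, Hba-a2 and Hbb-b2, so their r is partly built in.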

How the data were processed

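Tumour RNA of 8 samples was read on 2-colour Agilent arrays with Feature Extraction 11.0.1.1, per the file headers. The deposited median signal and background columns are linear intensities, by their column names, and were used as given. The deposited processed signals are intensities as well, and the settings behind them are not given in the sources used here. Agilent's log ratio is a log10 value, red divided by green, per the file headers. The deposited series matrix is on a log2 scale of red over green. Its values correlated at 0.893 to 0.947 with the scanner ratio and 0.985 to 0.991 with the log2 values computed here, on which they had slopes of 1.12 to 1.16. The medians of its columns, FGFR1 KO 1 to 4 and then WT 1 to 4, were 0.0155, -0.0152, -0.000673, 0.00487, -0.0044, -0.0014, -0.00486 and 0.00217. Its normalization and centring are not given in the sources used here.

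The labelling protocol puts the tumour in red. The label field names only cy3. The median SD within groups was lower in green (0.166 and 0.182) than in red (0.286 and 0.355), so green was kept as the reference. The software was R 4.3.3 and limma 3.58.1. Median signals were corrected by normexp with an offset of 50, then loess-normalized array by array, giving control and outlier spots weight 0, and averaged per probe. Of 55681 probes, 39795 had red well above background on at least 4 arrays and at least 3 values per group. Of all probes, 28331 were named by RefSeq accession through a GRCm38.p6 gene table, used for names only. Each gene took its brightest probe in red. The genotypes were compared with limma (lmFit, eBayes; two-sided), and p-values were adjusted by Benjamini-Hochberg across every tested probe, with 0.05 as the threshold. The fit was tested on simulated data with independent noise, where only probes of below-median spread were given a shift. That test did not cover shifts in genes that spread as widely as the erythroid set. Precision is limited by the number of arrays.

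The member genes and lists were chosen with earlier results of these data known. The genes named are the members, genes of the lists, and the 10 nearest by correlation. Alternatives were the background correction, normalization, channel, deposited values, filter on dim probes, bright part, probe per gene, array weights, variance model, replicate block and arrays left out.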

Additional observations from a re-analysis of the deposited data

Results flagged for a closer look

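In groups of 4 arrays, the highest or lowest value was marked where its gap to the nearest other took up more of the group's range than Dixon's 95% critical value for 4 samples, which chance gives in about 1 of 20 groups. Of 146 groups looked at, 20 were marked. The groups include the members, which were chosen on these arrays, and the nearest genes, chosen for following the members' median. Marks on those genes follow in part from that choice, so the count cannot be set against the chance share.

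Within FGFR1 KO, FGFR1 KO 3 was far above the others in the median of the erythroid genes (7.39, next 3.39), in Hba-a1 (7.36, next 3.22), and in the nearest genes Cpd (0.89, next -0.78), Parm1 (1.54, next 0.73) and Zfp74 (-0.51, next -0.84). FGFR1 KO 1 was lowest in Urod (-0.19, next 0.68) and highest in Alas1 (0.11, next -0.09) and in the endothelial median (0.89, next 0.63). FGFR1 KO 4 was lowest in Hbq1b (-2.75, next -2.23).

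Within WT, WT 2 was far above the others in Hba-a2 (8.34, next 6.002), Mb (8.65, next 1.48), Sptb (3.16, next 0.52), Ank1 (3.11, next 0.13), Camp (3.51, next 0.74), Ngp (3.09, next 0.43), Cpd (0.85, next 0.31), Usp16 (0.95, next 0.58) and the neutrophil median (1.73, next 0.43). WT 1 was highest in Lyl1 (2.45, next 0.86), and WT 3 was lowest in the red cell cytosol median (-0.0716, next 0.12). Causes of these gaps were not tested.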

How the results depend on the processing

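The median of the erythroid genes, FGFR1 KO minus WT, stayed below 0 in the 22 settings that kept red as the tumour channel, from -3.16 without FGFR1 KO 3 to -1.07 with array weights. It ran from -3.16 to -1.44 with 1 array left out, was -2.07 with the bright part left out and was -2.49 without FGFR1 KO 3 and WT 2, a setting chosen after seeing the data. With green taken as the sample the signs turn by construction, to 2.11 for the median, 2.09 for Hba-a1, 1.99 for Hba-a2, 2.25 for Hbb-b1, 2.14 for Hbb-b2, 1.22 for Alas2 and 1.08 for Slc4a1. Array weights also moved the single genes, to -0.998 for Hba-a1, -1.02 for Hba-a2, -1.20 for Hbb-b1, -0.93 for Hbb-b2 and -0.27 for Alas2, and Agilent's log ratio gave -0.42 for Alas2. Of the genes in the other lists, 0 were called in any of the 23 settings. The count of probes called, 4 in all, was 0 with Agilent's log ratio, median centring, red alone, probes above background on all 8 arrays, the bright part left out, trend and robust eBayes, without WT 1 and WT 2 and without FGFR1 KO 3 and WT 2. It was 139 with no filter on dim probes, 11 with array weights and 0 to 1 with 1 array left out. The replicate block gave 0 probes called and left the median at -2.11. The labels do not say that the numbers pair the samples, and same-numbered arrays deviated with correlations of -0.11 to 0.11, with 1 of 4 pairs each the other's closest. The cause of these changes was not tested. Alas2 and Slc4a1 lie nearest to background, which limits their precision.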
